A study of Mus musculus with 36 samples.

Results

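The genes described here are 10 members of the cyclic AMP response pathway of the liver: the transcription factors Creb1, Crem, Atf1 and Creb3l3, the coactivators Crebbp, Crtc2, Crtc3 and Ppargc1a, the kinase gene Sik1 and the nuclear receptor gene Nr4a1. They were taken by gene symbol from the deposited tables, where each stood on 1 row, and they are 10 of the 24066 symbols analysed. Liver RNA came from male wild-type C57BL/6JRj mice, 16 weeks old, kept with free access to chow and water under 12 h of light and 12 h of dark, with lights on at Zeitgeber time 0 (ZT0). The intermittent hypoxia (IH) group received 60 cycles of hypoxia and reoxygenation per hour, between 5% and 21% inspired oxygen, each day from ZT0 to ZT8 for 4 weeks, and the control group received cycles of air in place of hypoxia over the same period. Livers of 3 mice per condition were taken every 4 h from ZT0 to ZT20, so the 6 time points and 2 conditions made 36 libraries, 18 in each condition. Both groups were wild-type, whole liver was used, and ZT4 lay within the daily exposure window and ZT8 at its end.

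CREB1, CREM and ATF1 form a family of leucine zipper factors that bind the cyclic AMP response element and are switched on by phosphorylation through protein kinase A, downstream of glucagon and adrenergic receptors. CRTC2 and CRTC3 enter the nucleus when dephosphorylated and join CREB, CREBBP (CBP) acetylates histones at the same sites, and SIK1 phosphorylates the CRTC proteins and keeps them in the cytoplasm. Nr4a1, Sik1, Ppargc1a and a short repressor isoform of Crem are classical CREB targets, and CREB3L3 (CREB-H) is a membrane-bound factor of hepatocytes released by cleavage during fasting. Since the activity of most of these proteins is set after translation, the mRNA levels given here do not measure it. The values are per gene symbol, so that the isoforms of Crem cannot be told apart.

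Half-sites of the element that CREB binds were read in the sequence upstream of 4 members, and 3 of these windows are printed because Nr4a1 and Ppargc1a are themselves targets of the pathway and Atf1 codes for one of its factors. The sequences are from RefSeq on GRCm38.p6, each running 5′ to 3′ on the gene's strand from 250 bases before to 50 bases after an annotated start, and capitals mark the half-site TGACG or its reverse complement CGTCA. They lie at chr15:101266596-101266895 (plus strand) for Nr4a1, chr5:51567676-51567975 (minus strand) for Ppargc1a and chr15:100227609-100227908 (plus strand) for Atf1.
Nr4a1: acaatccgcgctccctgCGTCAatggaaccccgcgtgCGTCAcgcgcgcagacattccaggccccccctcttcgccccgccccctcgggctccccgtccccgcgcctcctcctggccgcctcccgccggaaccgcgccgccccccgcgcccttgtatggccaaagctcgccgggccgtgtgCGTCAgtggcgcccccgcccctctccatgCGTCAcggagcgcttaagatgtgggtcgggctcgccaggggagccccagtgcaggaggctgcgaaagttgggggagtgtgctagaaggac
Ppargc1a: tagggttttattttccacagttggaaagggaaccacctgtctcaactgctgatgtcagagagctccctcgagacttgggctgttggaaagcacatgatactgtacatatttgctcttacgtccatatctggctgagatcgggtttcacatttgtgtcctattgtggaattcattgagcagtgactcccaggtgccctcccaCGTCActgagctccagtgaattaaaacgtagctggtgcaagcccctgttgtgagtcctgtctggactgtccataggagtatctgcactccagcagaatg
Atf1: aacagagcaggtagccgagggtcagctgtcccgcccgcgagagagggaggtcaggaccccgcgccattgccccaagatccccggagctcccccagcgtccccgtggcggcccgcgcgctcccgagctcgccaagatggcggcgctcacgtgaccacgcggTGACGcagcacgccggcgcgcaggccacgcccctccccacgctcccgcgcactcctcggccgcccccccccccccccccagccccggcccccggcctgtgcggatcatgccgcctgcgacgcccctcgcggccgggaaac
The Nr4a1 window held 4 half-sites, whose first bases lay 233, 213, 69 and 40 bases before the start. The Ppargc1a window held 1, at 49 bases, and the Atf1 window 1, at 90 bases. Of 32851 promoter windows of 300 bases, 20.8% held at least 1 half-site on either strand, 0.231% held 4 or more, and 1.79% held the full element TGACGTCA, which contains both half-sites and was in none of the windows searched. Windows were matched for 7 of the 10 members. Those of Creb1, Crtc3 and Crebbp had no half-site, and Creb3l3 had 2 windows of which 1 had a single half-site. A match of letters is a description of the window and not a measured site.

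Values are FPKM, which the authors scaled to transcript length and library size, so levels can be set side by side between genes. Creb3l3 was the most abundant member, at 117 ± 14.1 FPKM (SD over 36 libraries), and was above Crtc2 in 36 of 36 libraries. Crtc2 followed with 13.4 ± 2.43, Atf1 with 10.9 ± 1.37, Crem with 8.61 ± 2.72 and Sik1 with 7.80 ± 3.39 FPKM. Of these, Crem and Sik1 were neighbours that did not differ beyond their spread, Crem being higher in 21 of 36 libraries. The remaining members were low: Crtc3 at 3.19 ± 1.02, Nr4a1 at 1.84 ± 2.92, Creb1 at 1.36 ± 0.201, Crebbp at 1.34 ± 0.250 and Ppargc1a at 0.833 ± 0.265 FPKM. Creb1, the factor that names the pathway, was thus below Atf1 and Crem in mRNA, and level with Crebbp, which it exceeded in 17 of 36 libraries. Nr4a1 had a higher mean than Creb1 but exceeded it in 9 of 36 libraries, its mean resting on a few high values.

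All 10 members passed the filter for testing, a mean of 0.1 FPKM, as did 13215 genes in all. Hepatocyte markers were high in all libraries (8 of 8 above the filter, summed at 44718 to 69647 FPKM), and markers of Kupffer cells (6 of 6 present) summed to 13.6 to 131 FPKM, with a median of 27.0 in control and 21.4 in IH. The highest Kupffer sum was in control ZT12 replicate 2, a library that stood apart: its FPKM summed to 758113 against 540095 to 579428 in the 35 others, and its replicates correlated at as low as r = 0.949 across genes against 0.978 or more elsewhere. It was at 0.164 times the mean of the 2 other control ZT12 mice for Crebbp, 0.302 times for Crtc3, 0.398 times for Ppargc1a, 0.426 times for Atf1 and 0.503 times for Crtc2, where the median gene was at 0.760 times. Creb3l3, at 1.00 times, was not low there, and Nr4a1 was at 3.54 times. The 5 acute phase genes measured (Saa1, Saa2, Saa3, Orm2 and Lcn2) summed to 37500 FPKM in that library against a median of 174 in control. Their sum was also high in control ZT16 replicate 3 (28551 FPKM) and in IH ZT0 replicate 2 (50617 FPKM). Values without control ZT12 replicate 2 are given beside several of the rhythm and ZT12 results that it moved. The number of fragments behind each value is unknown. In whole tissue, fewer cells of a type and less RNA per cell cannot be told apart.

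The first question was which members cycled over the day in each condition. For each condition alone, limma fitted a cosine of 24 h to the log2(FPKM + 1) of its 18 libraries, and a gene was called rhythmic at a nominal P of 0.01 or less by the moderated F test. In control 2 members, Crem and Crtc3, were rhythmic, against 20.0% of all genes tested. In IH 5 members were rhythmic, Creb1, Crem, Atf1, Crtc2 and Crtc3, against 39.9% of all genes. Both counts, out of 10 members, are near the share of all genes in the same condition. Calls in 1 condition and not in the other do not show a difference: when the rhythms were compared in 1 fit over 36 libraries, 0 of 13215 genes (0%) differed at an adjusted p of 0.05, with 649 (4.91%) at an unadjusted P under 0.05. None of the members was among these, the lowest P being 0.348, for Creb3l3.

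**Figure D1:**
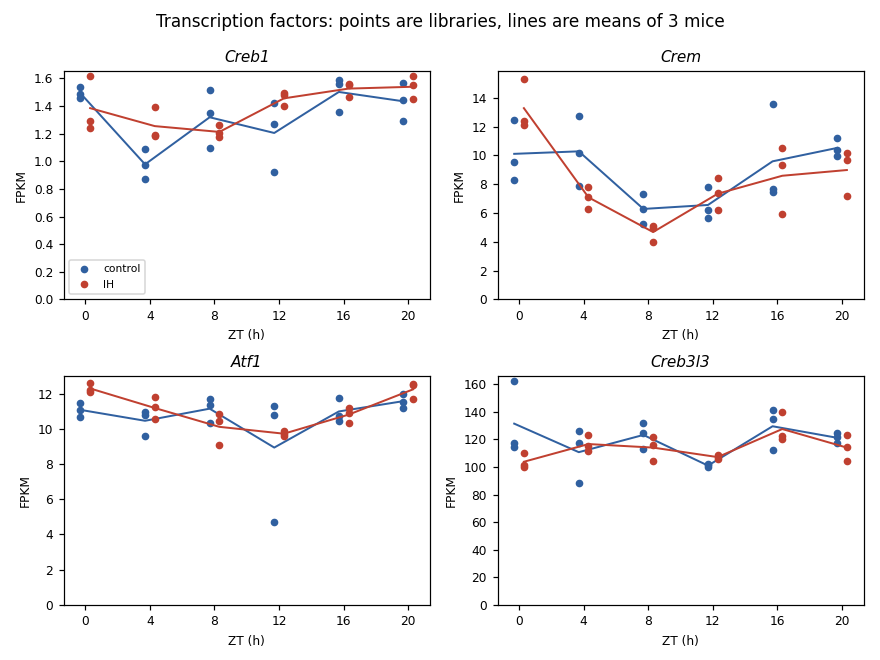
FPKM (y axis, from 0) of the 4 transcription factor genes against ZT in hours, in control (blue) and IH (red), with 1 point per library and lines through the means of 3 mice. Crem is lowest at ZT8 in both conditions, and the low Atf1 point at ZT12 is control replicate 2 at 4.71 FPKM.

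Crem, which codes for activator and repressor isoforms, had the largest fitted amplitude of the 4 factors in both conditions, though not the lowest rhythm P in IH. In control the 3 mice had 8.33, 9.54 and 12.5 FPKM at ZT0, 7.89, 12.8 and 10.2 at ZT4, and 6.30, 7.35 and 5.21 at ZT8. They had 5.69, 6.19 and 7.80 at ZT12, 7.49, 7.68 and 13.6 at ZT16, and 10.4, 9.97 and 11.2 at ZT20. Levels in control were thus lowest at ZT8 to ZT12 and highest in the late dark phase and early light phase. In IH they were 12.1, 12.4 and 15.3 at ZT0, 7.14, 7.83 and 6.30 at ZT4, and 4.95, 5.11 and 3.98 at ZT8. They were 8.44, 7.36 and 6.22 at ZT12, 5.93, 10.5 and 9.30 at ZT16, and 9.67, 7.16 and 10.1 at ZT20. The highest group mean in IH was at ZT0 and was 2.84 times the lowest, at ZT8, whereas in control the highest was 1.67 times the lowest. The fitted peak was at ZT22.2 in control (amplitude 0.35 on the log2 scale, P = 0.0033, n = 18 libraries) and ZT21.4 in IH (amplitude 0.46, P = 8.2e-04). The 2 rhythms were not called different by the interaction test (P = 0.585, adjusted p = 0.948, n = 36), and the control call was lost with median ratio scaling (P = 0.018), with JTK_Cycle (P = 0.035) and with an F test over the 6 time points (P = 0.016).

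Crem was also the member with a difference in level. At ZT4 and ZT8 in 1 fit, the time points within and at the end of that window, it was lower in IH, with 5.88 FPKM against 8.29 FPKM in control (6 mice each). At both time points all 3 IH mice were below all 3 control mice, though narrowly. The highest IH value was 7.83 FPKM against a lowest control value of 7.89 at ZT4, and 5.11 against 5.21 at ZT8. The share of all genes with such a separation was not computed. The difference was -0.41 ± 0.11 (SE) on the log2(FPKM + 1) scale, or 0.754-fold, with an adjusted p of 0.042 by limma over 13215 genes, of which 1.93% were called lower and 6.05% higher. The call was close to the threshold: leaving out 1 of the 12 libraries at a time gave differences of -0.33 to -0.47 and adjusted p from 0.028 to 0.095. It was kept without control ZT4 replicate 1 or control ZT8 replicate 3, and lost without any 1 of the 10 others. It was also lost with no filter on low values (adjusted p = 0.077). At single time points the differences were -0.46 at ZT4 (adjusted p = 0.237) and -0.35 at ZT8 (adjusted p = 1), and at ZT0 the difference was 0.37 in the other direction (adjusted p = 0.717).

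The highest group mean of Creb1 was 1.54 times the lowest in control and 1.27 times in IH. Over the 18 control libraries it ran from 0.873 to 1.59 FPKM with a median of 1.39, and over the 18 IH libraries from 1.17 to 1.62 with a median of 1.43. In IH it was rhythmic, with a peak at ZT17.7 and an amplitude of 0.11 on the log2 scale (P = 0.0014, n = 18 libraries). In control a like amplitude of 0.12 and a peak at ZT18.5 gave P = 0.051 (n = 18 libraries), and the interaction P was 0.842. The SD between mice of one time point was 0.11 in control and 0.06 in IH on the log2 scale. When the spread was shared between the conditions, control passed (P = 0.0077) and IH did not (P = 0.021, n = 36 libraries in the fit), and with that spread and without control ZT12 replicate 2 both passed (P = 0.0026 in control and P = 0.0083 in IH, n = 35). The IH call was lost with JTK_Cycle (P = 0.012, n = 18) and with an F test over the 6 time points (P = 0.019, n = 18), and control passed with median ratio scaling (P = 0.0045, n = 18). At ZT4 the control mice had 1.09, 0.873 and 0.971 FPKM and the IH mice 1.19, 1.18 and 1.39. The groups did not overlap, with a difference of 0.19 ± 0.08 (SE) that did not pass (unadjusted P = 0.020, adjusted p = 0.205). 1.16% of all genes passed at that time point.

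Atf1, the close relative of Creb1, had the lowest rhythm P of the members in IH. The IH mice had 12.2, 12.1 and 12.6 FPKM at ZT0, 11.8, 11.2 and 10.6 at ZT4, and 10.8, 10.4 and 9.06 at ZT8. They had 9.90, 9.58 and 9.69 at ZT12, 10.9, 11.2 and 10.4 at ZT16, and 12.5, 12.5 and 11.7 at ZT20. The values at ZT12 were thus below those at ZT20 and ZT0 in every mouse, and the fitted peak was at ZT22.6 with an amplitude of 0.17 on the log2 scale (P = 1.4e-05, n = 18 libraries). In control, 17 of the 18 libraries lay between 9.58 and 12.0 FPKM and control ZT12 replicate 2 was at 4.71. With that library the control fit had an amplitude of 0.12 (P = 0.362, n = 18 libraries) and the comparison of the rhythms gave P = 0.883. Without it the control amplitude was 0.03 (P = 0.530, n = 17 libraries) and the comparison gave P = 7.8e-04, the adjusted p being 0.673, and 738 genes (5.58%) had an unadjusted P under 0.05. With a spread shared between the conditions, the IH rhythm of Atf1 was at P = 0.044 with that library (n = 36) and at P = 1.4e-06 without it (n = 35).

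The group means of Creb3l3 in control were highest at ZT0, at 131 FPKM, and lowest at ZT12, at 101 FPKM. In IH they were highest at ZT16, at 128 FPKM, and lowest at ZT0, at 104 FPKM. The control libraries lay between 88.4 and 162 FPKM with a median of 118, and the IH libraries between 99.8 and 140 with a median of 113. It was called rhythmic in neither condition (P = 0.352 in control and P = 0.475 in IH, n = 18 libraries each). At ZT0 the control mice had 162, 115 and 117 FPKM and the IH mice 110, 102 and 99.8. All 3 IH mice were below the control mice, at a difference of -0.32 ± 0.12 (SE) with an unadjusted P of 0.011 and an adjusted p of 0.458, where 0% of all genes passed. Over all 6 time points the difference was -0.06, with a 95% interval from -0.16 to 0.04.

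**Figure D2:**
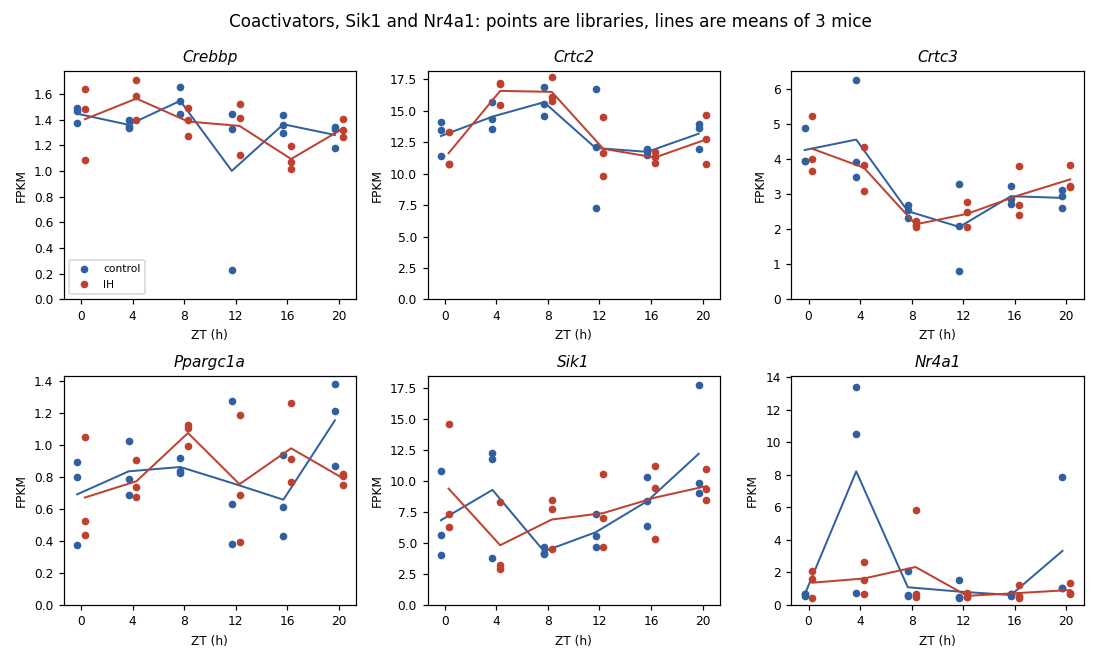
FPKM (y axis, from 0) of the coactivator genes, Sik1 and Nr4a1 against ZT in hours, in control (blue) and IH (red), with 1 point per library and lines through the means of 3 mice. Crtc3 is lowest at ZT8 to ZT12 in both conditions, and Nr4a1 has single points up to 13.4 FPKM above libraries near 0.5 FPKM.

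Among the coactivators, Crtc3 was called rhythmic in both conditions and Crtc2 in IH. Crtc3 in control was at 3.96, 4.87 and 3.94 FPKM at ZT0, 3.50, 6.24 and 3.92 at ZT4, 2.56, 2.68 and 2.31 at ZT8, and 3.29, 0.814 and 2.10 at ZT12. In IH it was at 3.99, 3.66 and 5.22 at ZT0, 3.82, 4.35 and 3.08 at ZT4, 2.07, 2.24 and 2.11 at ZT8, and 2.76, 2.50 and 2.06 at ZT12. In both conditions every mouse at ZT0 and ZT4 was above every mouse at ZT8. The fitted peak was at ZT0.89 in control (amplitude 0.40, P = 0.0032, n = 18 libraries) and ZT23.3 in IH (amplitude 0.34, P = 1.4e-04), and the interaction P was 0.392. Without control ZT12 replicate 2, the control amplitude was 0.30 (P = 0.0057, n = 17 libraries), and with an F test over the 6 time points the control call was lost (P = 0.011).

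Crtc2, the CRTC family member best known for driving gluconeogenic genes in fasting, peaked in the light phase. In IH it was at 10.7, 10.8 and 13.3 FPKM at ZT0, 17.1, 17.2 and 15.4 at ZT4 and 17.7, 15.7 and 16.1 at ZT8. The dark phase values in IH were 14.5, 9.85 and 11.6 at ZT12, 11.7, 11.3 and 10.8 at ZT16, and 12.7, 14.6 and 10.8 at ZT20. Every IH mouse at ZT4 and ZT8 was above every IH mouse at the other time points. The peak was fitted at ZT5.75 with an amplitude of 0.25 (P = 0.0029, n = 18 libraries), and JTK_Cycle gave P = 0.057. In control the range was 7.26 to 16.9 FPKM with a peak fitted at ZT4.47 and an amplitude of 0.16 (P = 0.140, n = 18 libraries), or at ZT6.80 with P = 0.014 without control ZT12 replicate 2. The interaction P was 0.546 with that library and 0.372 without it. At ZT4 and ZT8 the level was 16.5 FPKM in IH against 15.1 in control, a difference of 0.12 ± 0.05 (SE) that did not pass (unadjusted P = 0.041, adjusted p = 0.165). In IH, where both genes were called, the fitted peak of Crtc2 thus lay in the light phase and that of Crtc3 near lights on, a difference that was not tested.

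Crebbp, the acetyltransferase, was rhythmic in neither condition at the threshold. It ran from 0.228 to 1.65 FPKM with a median of 1.37 in control, the lowest value being control ZT12 replicate 2, and from 1.02 to 1.71 with a median of 1.40 in IH. The rhythm P was 0.415 in control and 0.023 in IH, which is an adjusted p of 0.048. With a spread shared between the conditions the IH value was P = 0.214 (n = 36), and P = 0.0038 without control ZT12 replicate 2 (n = 35). Ppargc1a, the fasting coactivator PGC-1α, was low in all libraries, from 0.374 to 1.38 FPKM in control with a median of 0.832 and from 0.389 to 1.26 in IH with a median of 0.813. Its rhythm P was 0.817 in control and 0.443 in IH, and the group means differed by at most 1.76 times between time points in control and 1.60 times in IH. At these levels the added value of 1 FPKM shrinks differences on the log2 scale.

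**Figure D3:**
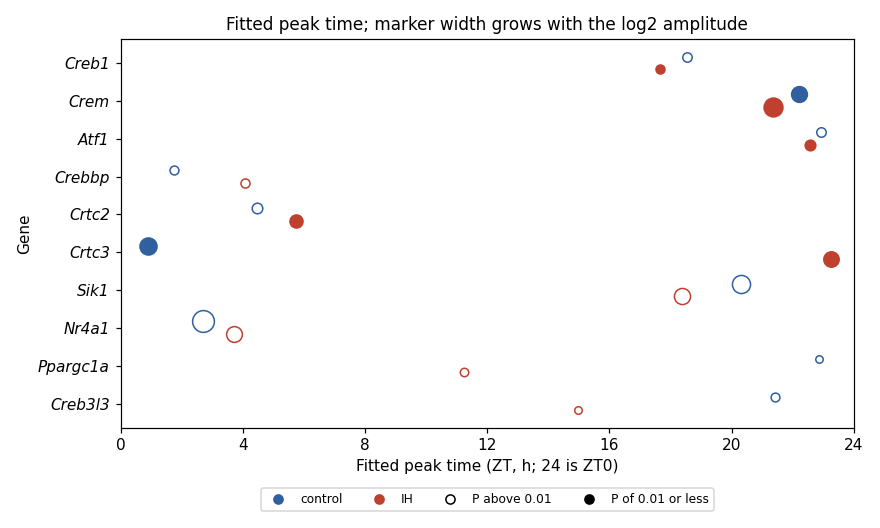
Fitted peak time in ZT hours (x axis, 24 being ZT0) of each member (y axis) in control (blue) and IH (red), with filled markers for a rhythm P of 0.01 or less and a marker width that grows with the log2 amplitude. Filled markers of both conditions are seen for Crem and Crtc3 alone, and the peaks of these 4 fits lie between ZT21.4 and ZT0.89.

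Sik1 and Nr4a1, genes that respond to cyclic AMP within minutes to hours, varied most between mice of one time point. For Nr4a1 that SD was 0.90 in control and 0.63 in IH on the log2 scale, and for Sik1 0.51 in both conditions, against 0.06 to 0.31 for the 8 other members. At ZT4 the control mice had 0.719, 13.4 and 10.5 FPKM of Nr4a1 and the IH mice 2.64, 1.55 and 0.649, so that 2 control mice were above all IH mice and 1 was below 2 of them. The same 2 control mice were the highest for Sik1 at ZT4, with 11.8 and 12.3 FPKM against 3.74 in the other control mouse and 8.32, 3.18 and 2.91 in IH. The Nr4a1 difference at ZT4 was -1.41 ± 0.60 (SE) and did not pass (adjusted p = 0.229). Without control ZT4 replicate 1 it was -2.37 ± 0.53 with an adjusted p of 0.043. For Sik1 at ZT4 the difference was -0.80 ± 0.39 (adjusted p = 0.304).

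Nr4a1 reached 5 FPKM in 4 of the 36 libraries, and the median over all 36 was 0.674. Beside control ZT4 replicates 2 and 3 these were control ZT20 replicate 1 at 7.86 FPKM and IH ZT8 replicate 1 at 5.82 FPKM. The 7 immediate early genes measured beside it, Fos, Fosb, Jun, Junb, Egr1, Ier2 and Atf3, summed to 124, 53.2, 51.6 and 83.2 FPKM in those 4 libraries in that order, against a median of 33.5 over the 32 other libraries. High immediate early sums also occurred without high Nr4a1: control ZT12 replicate 2 had a sum of 121 and Nr4a1 at 1.54 FPKM, and control ZT8 replicate 1 a sum of 78.0 and Nr4a1 at 2.08. Over the 18 control libraries the lowest and highest sums were 21.6 and 124, and over the 18 IH libraries they were 23.0 and 83.2. The part of an early response of single mice in the Nr4a1 and Sik1 values was not tested. Sik1 had its highest group mean at ZT20 in both conditions, with 17.7, 9.81 and 9.04 FPKM in control and 9.32, 8.48 and 10.9 in IH, and rhythm P values of 0.048 and 0.090.

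**Figure D4:**
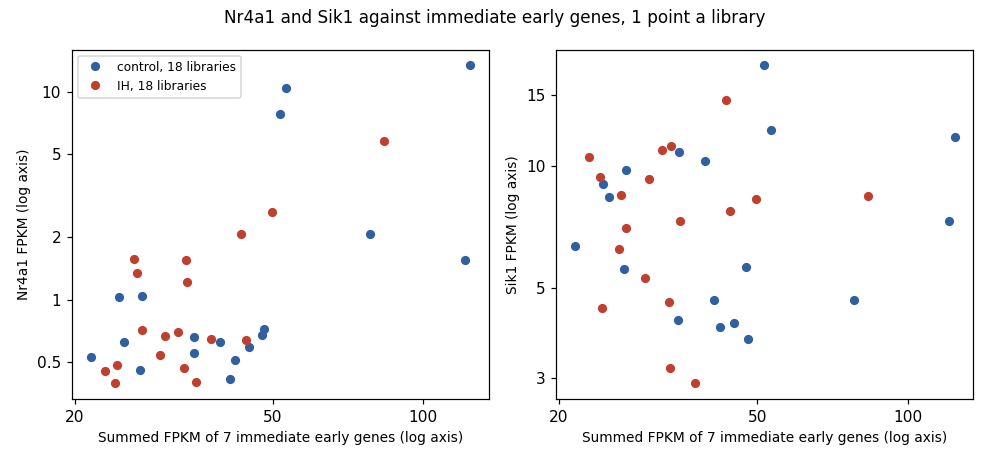
FPKM of Nr4a1 (left) and Sik1 (right) on a log axis against the summed FPKM of 7 immediate early genes on a log axis, with 1 point per library in control (blue) and IH (red). The 4 libraries with Nr4a1 of at least 5 FPKM have sums of 51.6 or more, while the library at a sum of 121 has Nr4a1 at 1.54.

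Differences in level between the conditions were then taken over all members. Over all 6 time points 0 of the 10 members passed, against 0.356% of all genes, and 0 had an unadjusted P under 0.05, the lowest being 0.151, for Creb1. Their differences ran from -0.25 for Nr4a1 to 0.06 for Atf1, with a median of 0.01 against 0.03 over all genes. The 95% intervals of the less variable members were narrow, from -0.02 to 0.12 for Creb1, from -0.07 to 0.18 for Atf1 and from -0.12 to 0.14 for Crtc2, while that of Nr4a1 ran from -0.76 to 0.27. At the 1.36 FPKM of Creb1 the added value of 1 FPKM shrinks the difference and its interval. With a pseudocount of 0.1 the Creb1 difference was 0.09 in place of 0.05. At ZT4 and ZT8 the median of the members was -0.02 against 0.04 over all genes, with 4 members above and 6 below 0. Members above and below 0 here count estimates and not calls.

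At single time points 0 of the 60 member and time point pairs passed, by limma with Benjamini-Hochberg adjustment over 13215 genes. An unadjusted P under 0.05 was reached by 1 member at ZT0 (Creb3l3), 3 at ZT4 (Creb1, Crem and Nr4a1) and 2 at ZT12 (Creb1 and Crebbp), and by none at ZT8, ZT16 or ZT20. Among all 13215 genes it was reached by 1000 at ZT0, 2172 at ZT4, 627 at ZT8, 3249 at ZT12, 436 at ZT16 and 627 at ZT20. At the adjusted threshold, 0% of all genes passed at ZT0, 1.16% at ZT4, 0.00757% at ZT8, 0.772% at ZT12, 0.00757% at ZT16 and 0% at ZT20. At ZT12 the estimates of 9 of 10 members were above 0, with a median of 0.15 against 0.03 for all genes. That count moved with control ZT12 replicate 2: 5 of 10 estimates were above 0 without it. The Crebbp difference was 0.29 with it and -0.03 without it, that of Atf1 0.19 and -0.17, that of Crtc2 0.05 and -0.25, and that of Crtc3 0.25 and -0.09. Ppargc1a went from 0.00051 to -0.16, Nr4a1 from -0.17 to 0.10 and Creb1 from 0.16 to 0.07. With control ZT12 replicate 1 left out Crebbp passed at ZT12 (0.47, adjusted p = 0.032), and with replicate 3 left out Crebbp (0.44, adjusted p = 0.035) and Creb1 (0.23, adjusted p = 0.037) passed, fits in which the library that stood apart is 1 of 2 control mice.

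**Figure D5:**
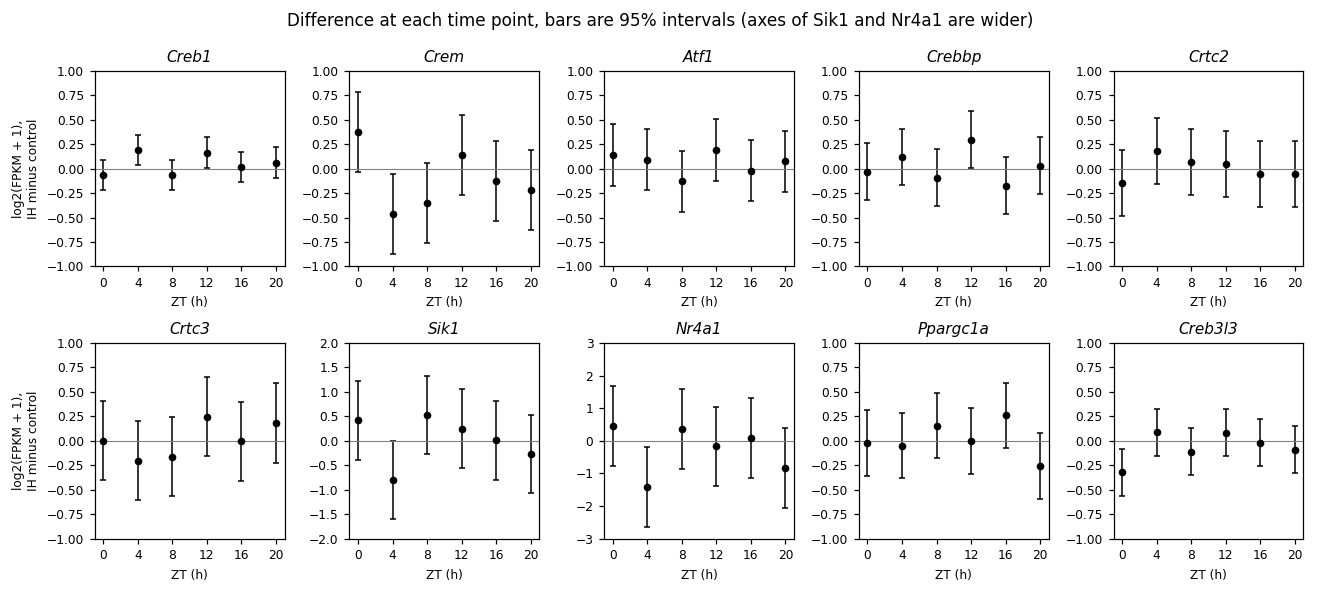
Difference in log2(FPKM + 1), IH minus control (y axis, wider for Sik1 and Nr4a1), at each ZT in hours for the 10 members, with points as estimates over 3 mice per group and bars as 95% intervals. The intervals of Crem and Nr4a1 at ZT4 lie below 0, as does that of Creb3l3 at ZT0, and those of Creb1 at ZT4 and ZT12 and Crebbp at ZT12 lie above 0, none of them past the adjusted threshold.

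The genes around the members were taken from 8 lists of the pathway with 128 genes, of which 113 were tested. Of these 27 were rhythmic in control and 56 in IH, 22 of them in both, against the 20.0% and 39.9% of all genes. None passed the comparison of the rhythms or of the level over all time points. The counts of rhythmic genes in the single lists that follow are to be read beside the same 20.0% and 39.9%. At ZT4 and ZT8, 10 of the 113 were higher in IH and 2 lower, against 6.05% and 1.93% of all genes. The median difference was 0.05 against 0.04. Some of these calls were close to the threshold, as for Prkag2 (adjusted p = 0.046 by limma) and Nfil3 (adjusted p = 0.047). Alternative settings and fits with 1 library left out were read for the members alone, so the calls of the pathway genes were not checked in that way.

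Upstream of the members, 15 genes of receptors, G proteins and adenylyl cyclases were tested, of which 3 passed the rhythm test in control and 8 in IH. The α1B adrenergic receptor gene Adra1b had the lowest P, peaking at ZT22.0 in control and ZT21.3 in IH, and the adenylyl cyclase gene Adcy9 peaked at ZT4.59 and ZT5.40. Adrb3, a β adrenergic receptor gene, peaked at ZT1.66 and ZT3.70, and the adenylyl cyclase gene Adcy6, called in IH, at ZT8.09 there. The glucagon receptor gene Gcgr, at 131 FPKM in control and 128 in IH, was rhythmic in IH (P = 3.6e-04, ZT5.83, n = 18 libraries) and not called in control (P = 0.387), with an interaction P of 0.405. Gnb2, a G protein β subunit gene, was the one called at ZT4 and ZT8, with 65.4 FPKM in IH against 54.9 in control (0.26 ± 0.07 SE, adjusted p = 0.042).

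Of 16 genes of protein kinase A, its anchors and inhibitors and the phosphatase 1 subunits that act on CREB, 3 passed the rhythm test in control and 9 in IH. The catalytic subunit gene Prkaca peaked at ZT23.8 in control and ZT21.4 in IH and the regulatory subunit gene Prkar1a at ZT2.77 and ZT2.64. At ZT4 and ZT8 the regulatory subunit gene Prkar2a was lower in IH, at 7.90 FPKM against 9.70 (-0.26, adjusted p = 0.026). The kinase inhibitor gene Pkig was higher, at 15.0 against 12.8 FPKM (0.22, adjusted p = 0.041), and so was the anchor gene Akap8, at 11.6 against 9.21 FPKM (0.34, adjusted p = 0.025). Of 11 phosphodiesterase genes, whose products break down cyclic AMP or cyclic GMP, 2 were rhythmic in control (Pde4b and Pde4a) and 5 in IH. Both genes called at ZT4 and ZT8 were higher in IH: Pde4c, at 6.15 against 4.55 FPKM (0.36, adjusted p = 0.022), and Pde2a, at 4.54 against 3.39 FPKM (0.35, adjusted p = 0.030).

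Of 13 other CREB and ATF factor genes tested, 4 were rhythmic in control, and the same 4 were among the 8 rhythmic in IH: Atf5, Creb3l1, Atf6b and Crebzf. Atf5 peaked at ZT1.12 in control and ZT23.6 in IH, with P values of 6.5e-11 and 1.2e-11, and its comparison of the rhythms (n = 36 libraries) gave P = 4.1e-04 and an adjusted p of 0.796. None of the 13 was called at ZT4 and ZT8. Of 19 regulators of CRTC, SIK and acetylation, 1 was rhythmic in control (Prkab2) and 9 in IH, none of them in both. Those with the lowest P in IH were the calcineurin genes Ppp3ca and Ppp3r1, the acetyltransferase gene Kat2b and Stk11, which codes for the kinase LKB1 that activates the SIK proteins. Prkag2, a γ subunit gene of AMP-activated kinase, was higher in IH at ZT4 and ZT8, at 8.78 against 6.83 FPKM (0.33, adjusted p = 0.046).

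Of 10 genes of the NR4A and PGC-1 families and their partners, 4 were rhythmic in control (Cebpb, Klf15, Foxo1 and Ppargc1b) and 3 in IH (Ppara, Esrra and Ppargc1b). Ppargc1b, the relative of Ppargc1a, peaked at ZT6.76 in control and ZT7.53 in IH. Esrra, the receptor through which PGC-1 proteins raise mitochondrial genes, was higher in IH at ZT4 and ZT8, at 14.4 against 11.0 FPKM (0.41 ± 0.07 SE, adjusted p = 0.014). Ppargc1a itself was at 0.923 against 0.848 FPKM there (0.05 ± 0.06 SE, adjusted p = 0.569).

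Downstream, 18 genes known as targets of CREB and CRTC2 in the liver were tested, and 9 were rhythmic in control and 9 in IH, 8 of them in both. Those with the lowest P in control were Pdk4, Nfil3, Per1 and Tat. The gluconeogenic genes best known as targets did not pass in either direction at ZT4 and ZT8. Pck1 was at 948 FPKM in IH against 901 in control (0.02 ± 0.16 SE, adjusted p = 0.941), and G6pc at 245 against 169 FPKM (0.35 ± 0.35 SE, adjusted p = 0.538). Fbp1, the fructose bisphosphatase of gluconeogenesis, was higher in IH at 584 against 503 FPKM (0.23, adjusted p = 0.034), and Sds, the serine dehydratase, at 177 against 117 FPKM (0.59 ± 0.08 SE, adjusted p = 0.0065). Nfil3, a repressor of clock output genes, was lower, at 5.26 against 8.54 FPKM (-0.52 ± 0.14 SE, adjusted p = 0.047). Of 11 genes known to follow CREB3L3, 1 was rhythmic in control (Bdh1) and 5 in IH. Apoa1, the main protein of high-density lipoprotein, was the one called at ZT4 and ZT8, at 0.35 ± 0.06 (SE) higher in IH (adjusted p = 0.012), while Fgf21 was at 1.80 against 1.59 FPKM (adjusted p = 0.878).

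The genes whose 12 group means followed a member most closely were sought among 9812 other genes averaging 1 FPKM or more. Crem was followed most closely by the sialyltransferase gene St3gal1 (Pearson r = 0.950, Spearman rho = 0.937), the transglutaminase gene Tgm2 (r = 0.939) and the collagen chaperone gene Serpinh1 (r = 0.939), and these r were 0.932 or more without control ZT12 replicate 2. Crtc2 was followed by Ap4m1 (r = 0.983), Inpp5k (r = 0.974) and Fbxo21 (r = 0.973), and Crtc3 by Zfhx2 (r = 0.978), Sowahb (r = 0.974) and Prkd2 (r = 0.960). Among the genes closest to Atf1 were Echdc1 (r = 0.939) and Dnajc22 (r = 0.936), whose r was 0.722 and 0.825 without that library. Nr4a1 was followed by Lgr4 (r = 0.888), Kdm3a (r = 0.875) and Nab2 (r = 0.856), and Sik1 by Parp16 at r = 0.828. Among the members themselves, the highest r was that of Crem and Crtc3, at 0.749 (rho = 0.713). The lowest was that of Creb1 and Nr4a1, at -0.748 (rho = -0.615). Control ZT4 had the lowest group mean of Creb1 and the highest of Nr4a1, whose 3 mice were at 0.719, 13.4 and 10.5 FPKM. All these likenesses are descriptions over 12 means from the same libraries.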

How the data were processed

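Liver polyadenylated RNA of 36 mice was sequenced by the authors as stranded, paired-end libraries. Per the labels, reads were aligned to mm10 with TopHat2 2.1.1, and Cufflinks 2.2.1 gave the deposited values, which are FPKM per gene symbol and library. The gene annotation and the counting of strand are not given in the sources used here. Counts are not among the deposited files, so library depth is unknown and no interval for counting error is given. Condition, time point and replicate were taken from the sample labels, and the condition of each of the 2 tables from its name, as no label ties a table to a condition.

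The 280 of 24346 symbols found on several rows were set aside. Values were analysed as log2(FPKM + 1) with limma 3.58.1 in R 4.3.3 (empirical Bayes with an intensity trend), for 13215 genes averaging 0.1 FPKM or more, and a fold change on this scale understates the change of low genes. Rhythm was tested with a 24-h cosine at a nominal P of 0.01, differences in rhythm by the terms for condition crossed with cosine and sine, and levels with time point as a factor, all two-sided, with Benjamini-Hochberg adjustment over all genes tested (threshold 0.05). Intervals are 95% intervals of the fit. The scripts were tested on simulated data. The rhythm software of the study, BIO_CYCLE, was not used here. Members, gene lists and tests were chosen with earlier results of these data known. Named genes are the 10 members, up to 4 called genes with the lowest P in each pathway list and comparison (not all of these are named), a few others given as values that were chosen after their values were seen (Pck1, G6pc and Fgf21), and genes among the 3 most alike to a member, of which some are not reported here. The single-time-point values of Crem, Creb1, Creb3l3 and Nr4a1 were likewise singled out after they were seen.

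Alternatives were common-sum and median ratio scaling, a pseudocount of 0.1, no filter or a mean of 1 FPKM, other rhythm tests (JTK_Cycle, an F test over time points), a shared spread, ZT4 or ZT8 alone, the replicate number as a block and leaving out each library. Python 3.11.15 with matplotlib 3.10.9 drew the figures.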

Additional observations from a re-analysis of the deposited data

Results flagged for a closer look

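In 4 members all 3 IH mice lay above all 3 control mice at one time point and below all 3 at another. The share of all genes with this pattern was not computed, so 4 members cannot be called many or few. The log2 differences, IH minus control, were 0.12 at ZT4 and -0.18 at ZT16 for Crebbp, -0.16 at ZT8 and 0.18 at ZT20 for Crtc3, 0.16 at ZT8 and -0.26 at ZT20 for Ppargc1a, and -0.32 at ZT0 and 0.085 at ZT12 for Creb3l3. The difference between the 2 time points was not tested in any of the 4, and none of the single differences passed its own test at an adjusted p of 0.05. The test of condition by time point over all 6 time points gave P values of 0.261 for Crebbp, 0.543 for Crtc3, 0.337 for Ppargc1a and 0.172 for Creb3l3.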

How the results depend on the processing

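In control, 0 members were rhythmic with an F test over 6 time points and 1 with JTK_Cycle, in place of 2. With a spread shared between the conditions, 3 were rhythmic in control (Creb1, Crem and Crtc3), the same number as in IH with that spread. In IH, 3 were rhythmic with JTK_Cycle and 3 with a spread shared between the conditions, in place of 5, and with that spread and without control ZT12 replicate 2, an alternative chosen after seeing the data, 6 in IH and 3 in control. At ZT4 and ZT8, 0 members were called with no filter, at ZT4 alone or at ZT8 alone, in place of 1. Leaving out 1 library gave 2 to 2 rhythmic members in control, 5 to 6 in IH, 0 to 0 for the comparison of the rhythms and for the level over all time points, 0 to 1 at ZT4 and ZT8, and 0 to 2 pairs at single time points. The cause of these changes was not tested. The labels do not say whether replicate numbers tie mice together. Residuals of same-numbered mice correlated at 0.054 on average and above 0.1 in 6 of 18 pairs, with 0.294, 0.266 and 0.136 at ZT12. With the replicate number as a block the counts of members stayed at 2, 5, 0, 0, 1 and 0.

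Among the members, the estimates that changed sign did not pass the test with or without the change. With median ratio scaling the difference over all time points was -0.0353 for Crtc2, -0.0186 for Crtc3, -0.0171 for Sik1 and -0.00144 for Ppargc1a, and that at ZT4 and ZT8 was -0.0262 for Crebbp. At ZT4 alone it was 0.0898 for Atf1, -0.0475 for Ppargc1a and 0.0893 for Creb3l3, and at ZT8 alone -0.0637 for Creb1, -0.0944 for Crebbp, 0.531 for Sik1 and 0.377 for Nr4a1. The 3 libraries with Saa1 above 10000 FPKM were control ZT12 replicate 2, control ZT16 replicate 3 and IH ZT0 replicate 2. Without these libraries, also chosen after seeing the data, the difference over all time points was -0.00409 for Atf1, -0.0253 for Crebbp, -0.0221 for Crtc2, -0.0266 for Crtc3 and -0.00398 for Sik1. With 1 library left out, differences over all time points ran from -0.0300 to 0.0389 for Crebbp, -0.0352 to 0.0409 for Crtc2, -0.0437 to 0.0466 for Crtc3, -0.0357 to 0.0880 for Sik1 and -0.00827 to 0.0430 for Ppargc1a. Those at ZT4 and ZT8 ran from -0.0574 to 0.0233 for Atf1, -0.0176 to 0.0395 for Crebbp, -0.277 to 0.0532 for Sik1 and -0.0900 to 0.0283 for Creb3l3. With no counts, precision at low FPKM is unknown, which touches Creb1, Crebbp, Ppargc1a and Nr4a1 most.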
